A study of Mus musculus with 64 samples.

Results

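The effect of a single dose of methamphetamine (MET) on the transcriptome of the mouse prefrontal cortex (PFCx) was described from 4 PFCx libraries of MET-injected mice and 8 PFCx libraries of saline-injected mice, 12 of the 64 libraries of the series. The libraries were taken by their labels alone. The whole series covered 6 psychotropic drugs and saline in the PFCx and in the nucleus accumbens (NAc), with whole-transcriptome sequencing of ribo-depleted RNA and transcript levels given as FPKM, a read abundance scaled to transcript length and library size. All mice were adult male C57BL/6N animals of 8 to 10 weeks, with no transgene, and brains were taken 2 h after 1 intraperitoneal injection. MET was given at 2 mg/kg in saline. The saline libraries carried 2 labels, set I and set II, with 4 libraries each, and MET shared set I. The PFCx dissection held cingulate, prelimbic and infralimbic cortex and part of the dorsal peduncular cortex, so every value was a mixture of neurons, glia and vessels, and a change in the number of cells of a type cannot be told apart from a change in RNA per cell.

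MET enters monoamine terminals through the plasma membrane transporters and releases dopamine, noradrenaline and serotonin from them. In cortical neurons, monoamine receptors and glutamate-driven calcium entry act on the cAMP and MAP kinase pathways. These pathways switch on immediate early genes, a first wave of transcription factors and synaptic effectors that need no new protein synthesis, followed within hours by phosphatases and other proteins that dampen the same kinases. The comparison asked which transcripts of the PFCx stood at another level 2 h after MET than after saline.

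Fold changes below are differences in log2(FPKM + 1), which understate the change of low genes, with the standard error of the limma fit over all 32 PFCx libraries. A gene was called when its Benjamini-Hochberg adjusted p from limma was under 0.05 both against the 8 saline libraries and against saline set I alone, with the same sign. Of 36807 genes tested, 43 rose (0.117%) and 6 fell (0.0163%) by that rule. Against the 8 saline libraries alone 130 genes passed (0.353%, of which 100 rose and 30 fell), and against saline set I alone 59 did (0.16%, 50 up and 9 down). Both counts share the MET libraries, and set I is part of the 8. The rises ran from 0.291 to 1.987 against set I, with a median of 0.597, and the median over all genes tested was -0.013. All 4 MET libraries stood above all 8 saline libraries for 40 of the 43 risen genes, and below all 8 for each of the 6 fallen genes; among all genes tested, 0.505% stood above and 0.467% below in this way. These counts follow in part from the call and are given as a description. Of the 49 called genes, 39 were annotated as protein coding (79.6%), against 51.7% of the genes tested. Genes without a matching identifier in the annotation counted as not coding in both shares. Rasgef1b was one of them, although it has protein-coding transcripts. The 2 shares also differ in level: 39 of the risen and 6 of the fallen genes had a mean FPKM of at least 1, while the genes tested reached down to 0.1. The calls leaned on the spread shared by all 32 PFCx libraries: with only the compared libraries in the fit, 2 genes (Arc and Dusp5) passed against both controls.

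Promoter windows were those that RefSeq gives for GRCm38.p6. Among the 16 risen named genes with a window, 5 had a cAMP response element, an Egr motif or a CArG box. These are the known landing places of CREB, Egr1 and SRF. The sequences of these 5 are shown as a description. Csrnp1, with 2 AP-1 motifs in 1 of its windows, is not printed. Windows were at hand for 19 of the 26 named called genes. Each line below holds the 250 bases before the RefSeq start site, 5′ to 3′ on the gene's strand, with the motif in capitals. Dusp1 (chr17:26508473-26508722, minus strand) and Dio2 (chr12:90739039-90739288, minus strand) each held 1 cAMP response element, 143 and 95 bases before the start, Nr4a1 (chr15:101266596-101266845, plus strand) and Fosb (chr7:19310046-19310295, minus strand) each held 1 Egr motif, and Dusp5 (chr19:53528895-53529144, plus strand) held 2 CArG boxes.
Dusp1: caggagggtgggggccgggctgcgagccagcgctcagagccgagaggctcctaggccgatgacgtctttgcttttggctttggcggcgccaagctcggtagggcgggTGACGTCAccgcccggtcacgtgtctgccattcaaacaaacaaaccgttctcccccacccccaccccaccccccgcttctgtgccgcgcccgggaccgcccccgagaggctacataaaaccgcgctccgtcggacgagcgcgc
Dio2: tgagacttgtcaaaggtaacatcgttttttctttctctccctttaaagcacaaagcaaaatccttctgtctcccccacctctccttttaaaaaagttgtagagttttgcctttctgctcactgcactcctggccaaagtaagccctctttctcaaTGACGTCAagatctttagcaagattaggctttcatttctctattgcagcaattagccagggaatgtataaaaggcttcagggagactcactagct
Nr4a1: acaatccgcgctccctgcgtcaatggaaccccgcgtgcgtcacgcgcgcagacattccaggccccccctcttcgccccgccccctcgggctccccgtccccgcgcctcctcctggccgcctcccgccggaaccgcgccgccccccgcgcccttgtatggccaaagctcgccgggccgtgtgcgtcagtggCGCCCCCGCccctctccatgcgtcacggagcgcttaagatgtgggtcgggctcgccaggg
Fosb: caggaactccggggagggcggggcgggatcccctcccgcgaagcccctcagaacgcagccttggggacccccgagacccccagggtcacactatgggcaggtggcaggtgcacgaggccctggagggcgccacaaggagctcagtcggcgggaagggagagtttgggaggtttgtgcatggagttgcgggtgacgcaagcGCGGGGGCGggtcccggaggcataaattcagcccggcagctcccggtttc
Dusp5: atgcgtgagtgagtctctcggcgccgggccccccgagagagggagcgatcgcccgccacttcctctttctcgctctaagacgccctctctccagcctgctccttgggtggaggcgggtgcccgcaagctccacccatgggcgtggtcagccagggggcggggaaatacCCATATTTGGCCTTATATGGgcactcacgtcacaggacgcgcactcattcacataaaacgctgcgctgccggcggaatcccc

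The motifs were searched on both strands. A gene counted when any of its windows held the motif, and the 19 genes had 25 windows. The shares of all windows are per window, so they are not the same measure. Among the 16 risen named genes with a window, TGACGTCA (cAMP response element) was found in 2, TGANTCA (AP-1) in 1, CACGTG (E-box) in 2, GCGTGGGCG or GCGGGGGCG (Egr) in 2 and the CArG box in 1. Of all 32851 windows in the table, 1.55% held the cAMP response element, 6.75% the AP-1 motif, 6.02% the E-box, 3.06% an Egr motif and 1.47% a CArG box. Fallen genes held motifs too: Rasgef1b had an Egr motif and Klf6 an E-box, while Nyap2 had none of the motifs. A match describes letters in a window and shows no binding. For 20 of the 25 windows, the end stood in a transcript of the gene. The measured Dio2 transcript starts at chr12:90738438, downstream of its window and of the RefSeq start from which the 95 bases were counted.

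The immediate early transcription factors held the most calls of any list. Of 27 members, 10 rose and 1 fell, and their median difference from set I was 0.48, with 24 of 27 above 0. Over all genes tested 0.133% were called and 16587 of 36807 differences were above 0. Among genes with a mean FPKM of at least 1, 0.284% were called. The lists were chosen with earlier results of these data known, so these and later list counts are a description. Fos (ENSMUSG00000021250, chr12:85473890-85477273, plus strand, GRCm38), the leucine-zipper partner of Jun proteins in AP-1, read 12.29, 10.67, 9.304 and 10.53 FPKM in the MET libraries. In saline it read 4.869, 5.343, 3.309 and 4.554 in set I and 6.587, 5.568, 6.225 and 6.301 in set II. Every MET library lay above every saline library, and the difference was 1.09 ± 0.13 against set I (adjusted p = 4.1e-05, limma) and 0.90 against the 8 (adjusted p = 0.000448). Junb, a Jun family member of AP-1, averaged 11.53 FPKM after MET against 5.308 in set I and 4.742 in set II, a difference of 1.00 ± 0.19 from set I. It overlaps Prdx2 on the other strand, as Dusp1 does Ergic1, Dio2 Gm26512, Dusp5 AC137853.2 and Csrnp1 1700019L13Rik. The same holds for Bhlhe40 (0610040F04Rik), Tiparp (4931440P22Rik), Bdnf (Gm45346) and Cdkn1a (AC167363.2). The strand setting of the quantification was not given in the sources used here. Fosb, a second Fos family gene, stood at 3.473 ± 0.363 FPKM (SD, n = 4) against 1.700 ± 0.298 in set I. The orphan nuclear receptor Nr4a1 rose from 4.595 FPKM in set I to 9.975, and its relative Nr4a2 from 1.675 to 3.376, with no overlap between MET and saline for either gene.

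Egr1, a zinc-finger factor used as a marker of recent neuronal activity, read 23.21, 20.4, 16.79 and 18.87 FPKM after MET, and from 10.53 to 15.65 over the 8 saline libraries. Its difference from set I was 0.75 ± 0.10 (adjusted p = 0.000296, limma). Egr2 and Egr4 had differences of similar size that did not pass, Egr2 with 0.74 ± 0.18 (adjusted p = 0.149 against set I) and Egr4 with 0.68 ± 0.16 (adjusted p = 0.0825). With the replicate number as a block Egr4 passed against both controls (adjusted p = 0.00708 against set I and 0.049 against the 8), and Egr2 did not. The block was common to all PFCx groups, and saline set II did not pair with MET by number, which limits the value against the 8. The MET values of Egr2 spread from 2.481 to 4.238 FPKM and overlapped the saline values, which reached 2.947. Npas4, a calcium-dependent factor of neurons whose transcript is short-lived, averaged 3.344 FPKM after MET and 2.301 in set I (difference 0.40, adjusted p = 0.55). Against the 8 its adjusted p was 0.12, and 0.0487 with the replicate block, under the same limit. Klf10, a zinc-finger repressor induced by TGF-beta, showed little spread, at 9.63, 9.749, 8.251 and 8.658 FPKM against 4.781 to 5.747 over the 8 saline libraries (difference 0.72 ± 0.07, adjusted p = 2.35e-06). Csrnp1, a cysteine- and serine-rich nuclear protein, and Ier5, an early response gene, rose by 0.62 and 0.60. Bhlhe40, a repressor that also feeds into the circadian clock, rose by 0.53 ± 0.11 from a high saline level of 22.36 FPKM. Klf6, also on the list, went the other way and read 5.79, 5.445, 5.469 and 4.963 FPKM after MET against 7.225 to 9.094 in saline (difference -0.41 ± 0.07, adjusted p = 0.00285).

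**Figure D1:**
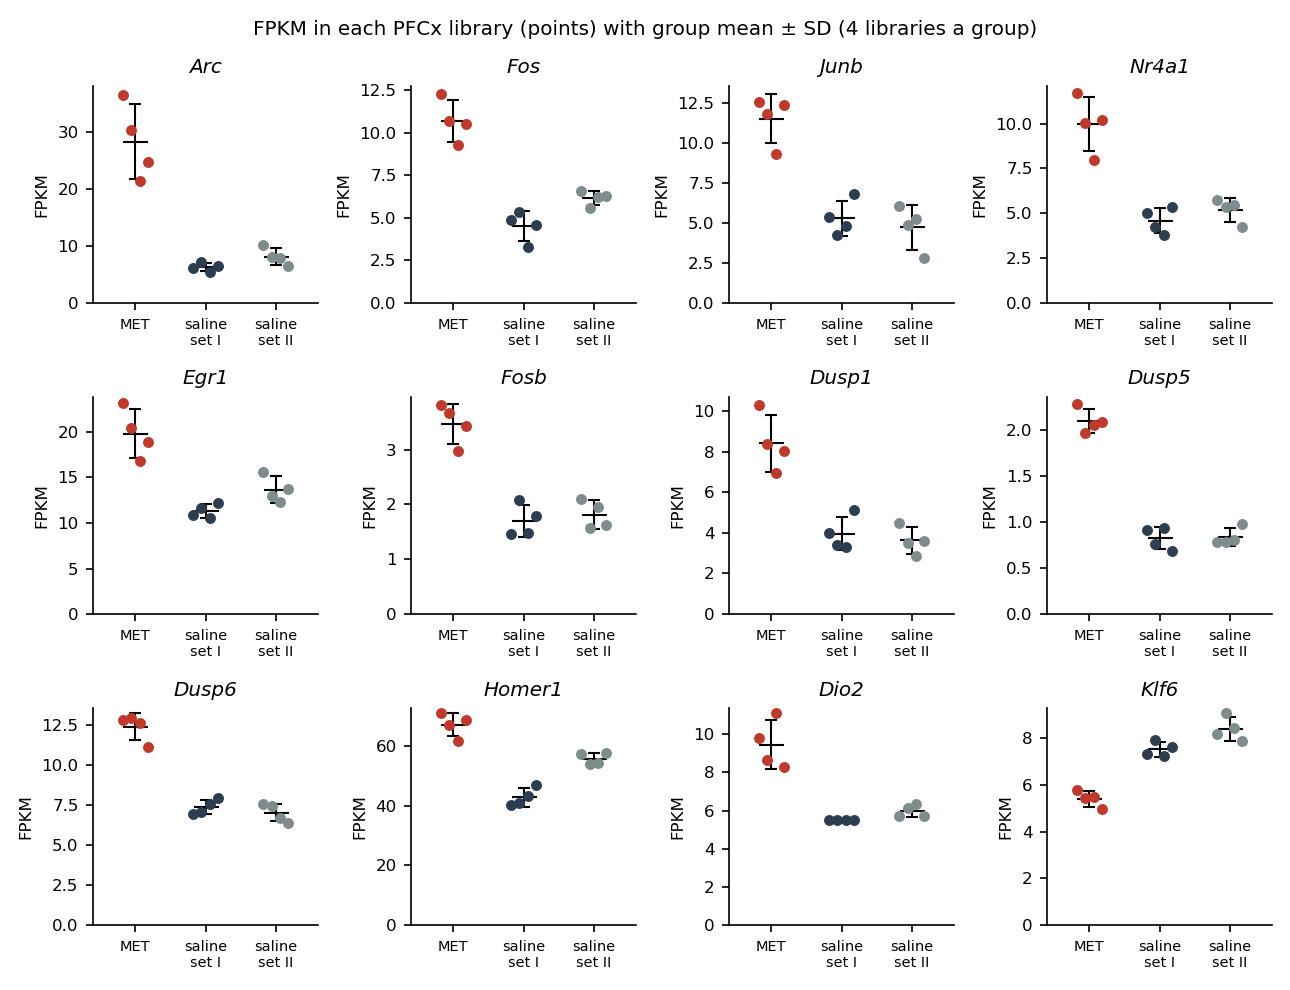
FPKM (y axis, linear, from 0) of 12 named genes in the 4 MET, 4 saline set I and 4 saline set II libraries of the PFCx; points are libraries, bars the mean ± SD. The MET points lie above all saline points for the 11 risen genes and below them for Klf6, and Homer1 shows a higher saline set II than set I.

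Arc (ENSMUSG00000022602, chr15:74669083-74672570, minus strand), a capsid-like synaptic protein that drives removal of AMPA receptors, had the largest rise of all called genes. It read 36.43, 30.35, 21.43 and 24.71 FPKM after MET. The saline libraries read 6.143, 7.096, 5.361 and 6.459 in set I and 10.08, 7.99, 7.909 and 6.441 in set II. Even the lowest MET library stood above the highest saline value, and the mean was 4.51 times that of set I (difference 1.99 ± 0.16, adjusted p = 8.68e-08, limma). Among the 33 synaptic and signalling genes induced by activity, 6 rose and none fell, with a median of 0.243. Besides Arc these were Homer1, Trib1, Gadd45b, Sik1 and Tiparp. Trib1, a pseudokinase that targets proteins for degradation, rose from 1.859 to 3.618 FPKM, and Sik1, a kinase that holds back CREB coactivators, from 1.064 to 2.244. Gadd45b, linked to DNA repair and demethylation, rose from 1.227 to 2.552 FPKM, with an adjusted p of 0.0477 against set I that was lost in each of the 8 fits without 1 MET or set I library and with the replicate block (adjusted p = 0.0652). Bdnf, the growth factor released by active synapses, averaged 5.209 FPKM after MET, 4.208 in set I and 3.561 in set II. Its MET libraries (4.917 to 5.541) lay above all saline libraries (2.936 to 4.381), yet it passed only against the 8 (adjusted p = 0.0143) and not against set I (difference 0.25 ± 0.07, adjusted p = 0.302).

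Homer1 (ENSMUSG00000007617, chr13:93299635-93405129, plus strand) codes for scaffold proteins of the postsynaptic density. Summed over its transcripts it read 71.27, 67.09, 61.93 and 68.68 FPKM after MET, 40.19 to 47.07 in set I and 54.06 to 57.68 in set II. The saline sets did not overlap each other, so the size of the rise depended on the control: 0.64 ± 0.07 against set I (adjusted p = 6.25e-06) and 0.45 against the 8 (adjusted p = 0.00862). ENSMUST00000102752, of 5713 bases, codes for 186 amino acids by the GENCODE annotation; this is the short form, Homer1a, which lacks the coiled coil and loosens the scaffold. It read 20.02, 17.91, 15.33 and 13.8 FPKM after MET, 6.497 to 7.856 in set I and 8.576 to 11.59 in set II, a rise of 1.09 ± 0.09 against set I (adjusted p = 4.26e-07 over all transcripts). ENSMUST00000080127, which codes for 366 amino acids, averaged 9.496 FPKM after MET and 9.129 in set I (difference 0.03 ± 0.16, adjusted p = 1). A second long form, ENSMUST00000079086, of 370 amino acids, averaged 7.212 and 5.145 FPKM (difference 0.43 ± 0.11, adjusted p = 0.329). ENSMUST00000109493, of 233 amino acids, read above all 8 saline libraries in every MET library and had a difference of 0.68 ± 0.15 that did not pass (adjusted p = 0.118). ENSMUST00000102752 made up 24.9% of the gene's summed FPKM after MET and 17.0% in set I. Other annotated transcripts also had short coding sequences. ENSMUST00000109497, of 180 amino acids, made up 19.0% and 22.2%. ENSMUST00000109492, of 203, made up 13.5% and 10.4%, with a difference of 0.90 ± 0.24 that did not pass (adjusted p = 0.367, limma). These values depend on how the quantification divided reads among overlapping transcripts.

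The negative regulators of MAP kinase signalling formed the third group. Of 20 genes, 5 rose and none fell (median 0.141). They were 4 dual-specificity phosphatases, which remove phosphate from MAP kinases, and Spry4, an inhibitor of growth factor receptor signals. Dusp1, the nuclear member, read 10.33, 8.38, 6.933 and 8.037 FPKM after MET against 3.329 to 5.137 in set I and 2.872 to 4.49 in set II (difference 0.93 ± 0.14 from set I, adjusted p = 0.000686). Dusp5, nuclear and specific for ERK, varied little, with 2.284, 1.974, 2.057 and 2.087 FPKM after MET and 0.6894 to 0.9779 over the 8 saline libraries (difference 0.77 ± 0.08, adjusted p = 2.35e-06). Dusp6, the cytoplasmic ERK phosphatase, rose from 7.36 to 12.36 FPKM, a factor of 1.68, and Spry4 from 1.241 to 2.059, the latter with an adjusted p of 0.0446 against set I and 0.0601 with the replicate block. The members that did not pass included Spry1, which had the lowest difference of the list (-0.12).

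**Figure D2:**
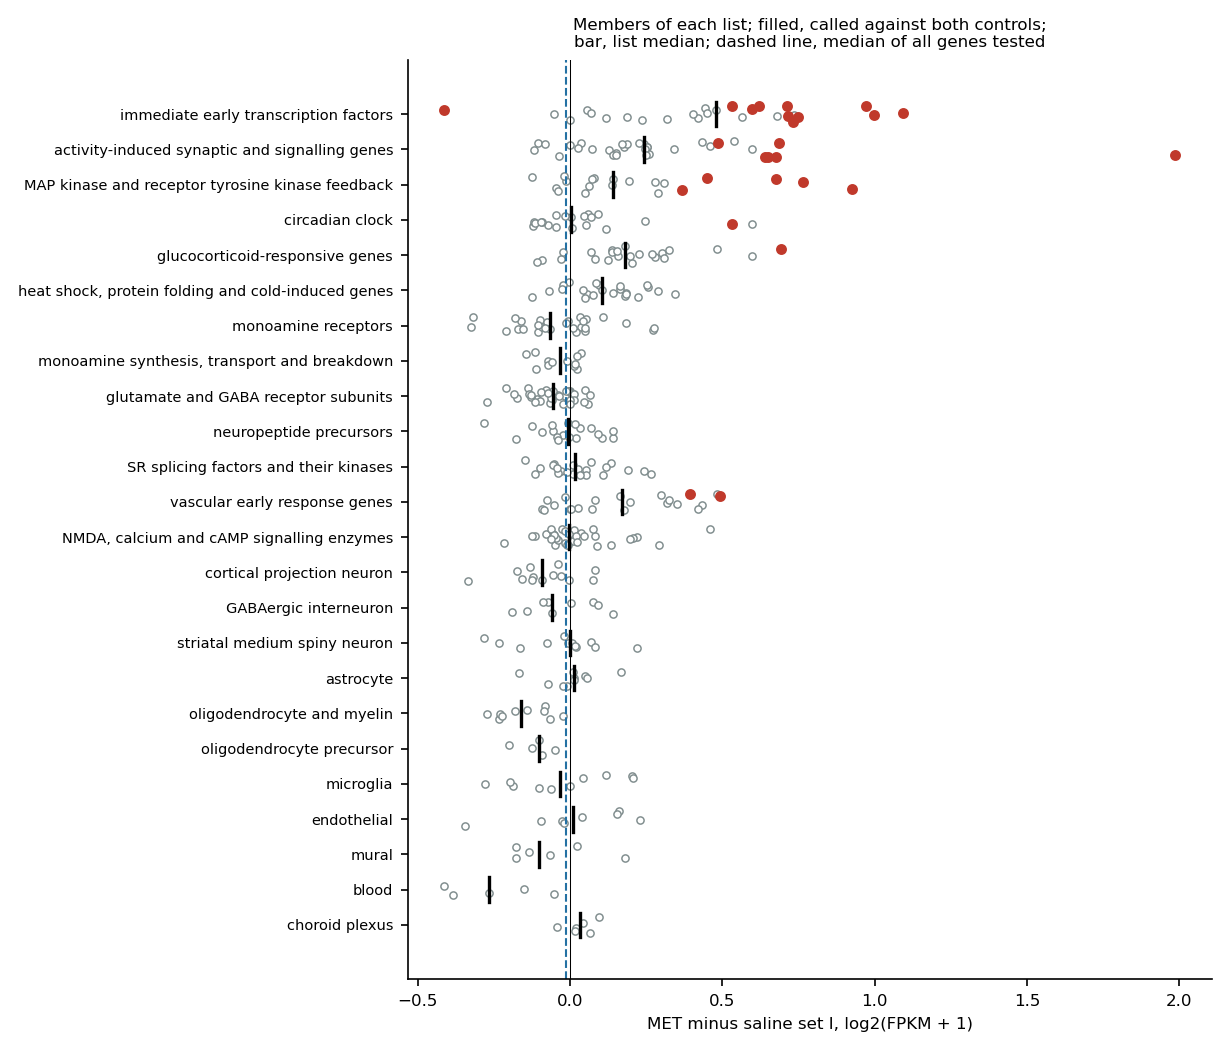
Difference between MET and saline set I in log2(FPKM + 1) (x axis) for the tested members of 13 gene lists and 11 marker lists (rows); filled points were called against both controls, bars are list medians and the dashed line is the median of all genes tested. The calls sit in the first 3 lists, with 1 or 2 calls each in the circadian, glucocorticoid and vascular lists, and no marker list holds one.

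Genes outside the neuronal early response also stood among the largest risers. Dio2, the deiodinase with which astrocytes turn thyroxine into active thyroid hormone, read 9.811, 8.665, 11.1 and 8.267 FPKM after MET, and 5.497 to 6.352 over the 8 saline libraries. Its difference from set I was 0.68 ± 0.08 (adjusted p = 1.44e-05, limma). Tsc22d3, which codes for the glucocorticoid-induced leucine zipper GILZ, rose by 0.69 ± 0.10, from 9.648 to 16.09 FPKM, the one call among 23 glucocorticoid-responsive genes. The median of that list was 0.182, with 19 of 23 above 0, against 16587 of 36807 over all genes tested. Among its other named members, Per1 gave 0.60 ± 0.17 and Cdkn1a 0.48 ± 0.12, the latter with an adjusted p of 0.0128 against the 8 (limma). Fkbp5, a chaperone of the glucocorticoid receptor, gave 0.31 ± 0.13 and Sgk1, a serum-regulated kinase, 0.20 ± 0.11. Nfkbia, the NF-kappaB inhibitor, gave 0.32 ± 0.13, and none of these passed against set I. The rise of Tsc22d3 lay in ENSMUST00000055738, the transcript that codes for 137 amino acids: it read 12.47, 10.95, 12.25 and 9.943 FPKM after MET and 3.222 to 5.387 in saline (difference 1.04 ± 0.15, adjusted p = 0.000876). Of 22 vascular early response genes, 2 rose: Adamts1, a secreted protease, from 1.068 to 1.92 FPKM, and Mcl1, an anti-apoptotic protein, from 5.836 to 8.044. In Mcl1, MET overlapped saline set II.

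The circadian list gave 1 call, Bhlhe40, of 20 genes, and a median of 0.005. Per1, a core clock gene that also answers to cAMP and glucocorticoids, averaged 9.493 FPKM after MET and 5.921 in set I (difference 0.60 ± 0.17, adjusted p = 0.262). The lists of monoamine receptors (29 tested), monoamine synthesis and transport (12), glutamate and GABA receptor subunits (36), neuropeptide precursors (19), SR splicing factors (22), calcium and cAMP enzymes (34) and heat shock genes (23) held no call, and their medians ran from -0.065 to 0.104. Drd1, a dopamine receptor, averaged 2.641 FPKM after MET and 2.597 in set I (difference 0.02 ± 0.17, adjusted p = 0.996), and Drd2 stood under 1 FPKM in 11 of the 12 libraries. Hspa1b, a heat-inducible chaperone that shares sequence with Hspa1a, gave 1.086 and 0.9685 FPKM (difference 0.09 ± 0.10).

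The 6 falls had a median size of 0.497 on the log2 scale. Rasgef1b, an exchange factor for Rap, read 5.685, 5.748, 5.283 and 5.421 FPKM after MET against 7.663 to 10.32 in saline (difference -0.51 ± 0.10, adjusted p = 0.0331). Nyap2, an adaptor that links neuronal receptors to PI3 kinase, went from 8.367 to 6.802 FPKM (difference -0.26 ± 0.06, adjusted p = 0.0477, and 0.0587 with the replicate block). The other 3 fallen genes besides Klf6 had predicted or clone names. Among the risen genes 8 had such names, and 2 of these were small nuclear RNAs under 200 bases.

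**Figure D3:**
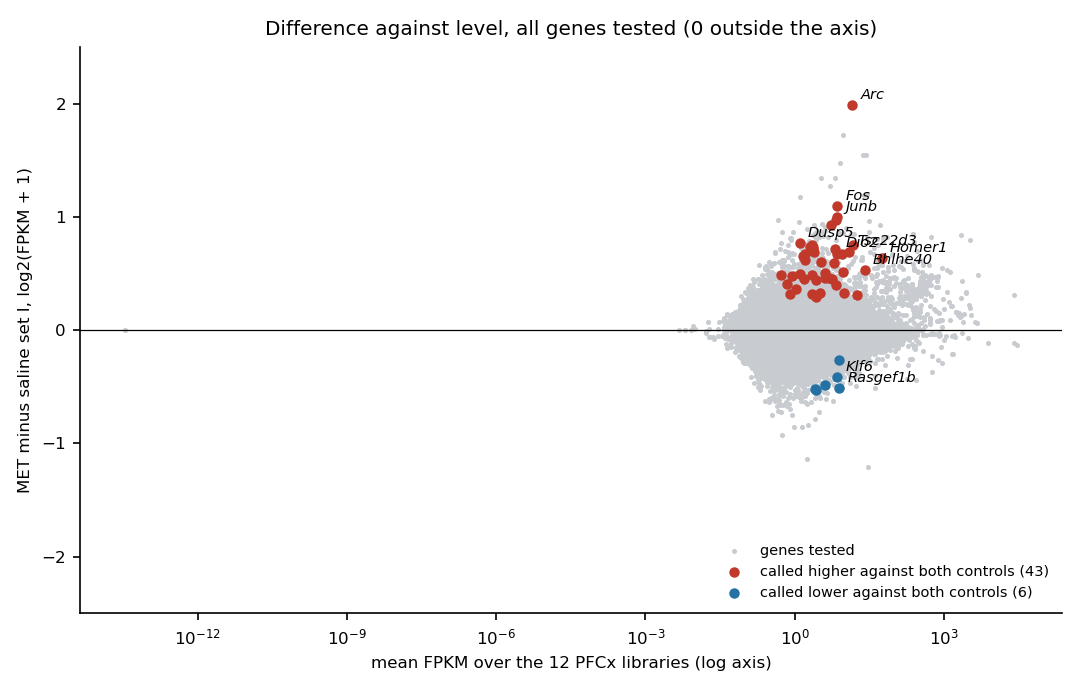
Difference between MET and saline set I in log2(FPKM + 1) (y axis) against mean FPKM over the 12 libraries (x axis, log scale) for every gene tested (grey), with the 43 genes called higher in red and the 6 called lower in blue. Arc stands apart at the top, and some genes with larger differences than most called genes are grey because they did not pass.

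Per transcript, 36 of 84728 rose against both controls (0.0425%) and 4 fell (0.00472%). Of the 40, 30 belonged to called genes and 10 to genes whose sum was not called, 6 of which fell under the naming rule. Among these, ENSMUST00000023829 of Cdkn1a, the cell cycle inhibitor p21, rose from 2.977 to 4.902 FPKM (difference 0.57 ± 0.10, adjusted p = 0.0174), while the gene sum missed the threshold against set I (adjusted p = 0.146) and passed with the replicate block (adjusted p = 0.0402). ENSMUST00000048289 of Egr2 read 2.688, 2.511, 1.797 and 1.715 FPKM after MET and 0.3523 to 1.229 in saline (difference 0.93 ± 0.17, adjusted p = 0.0225). Those of Per2, a second clock gene, Sox8, a glial transcription factor, and Ccnd2, a cyclin of the G1 phase, rose by 0.44, 0.53 and 0.46. A retained-intron transcript of Dock3, a neuronal exchange factor, had a difference of -0.37 ± 0.07. For Arc, reads were divided between ENSMUST00000023268 and ENSMUST00000110009, which code for the same 396 amino acids, and the second read from 0.007788 to 3.576 FPKM among set I libraries, so the sum is the safer value.

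**Figure D4:**
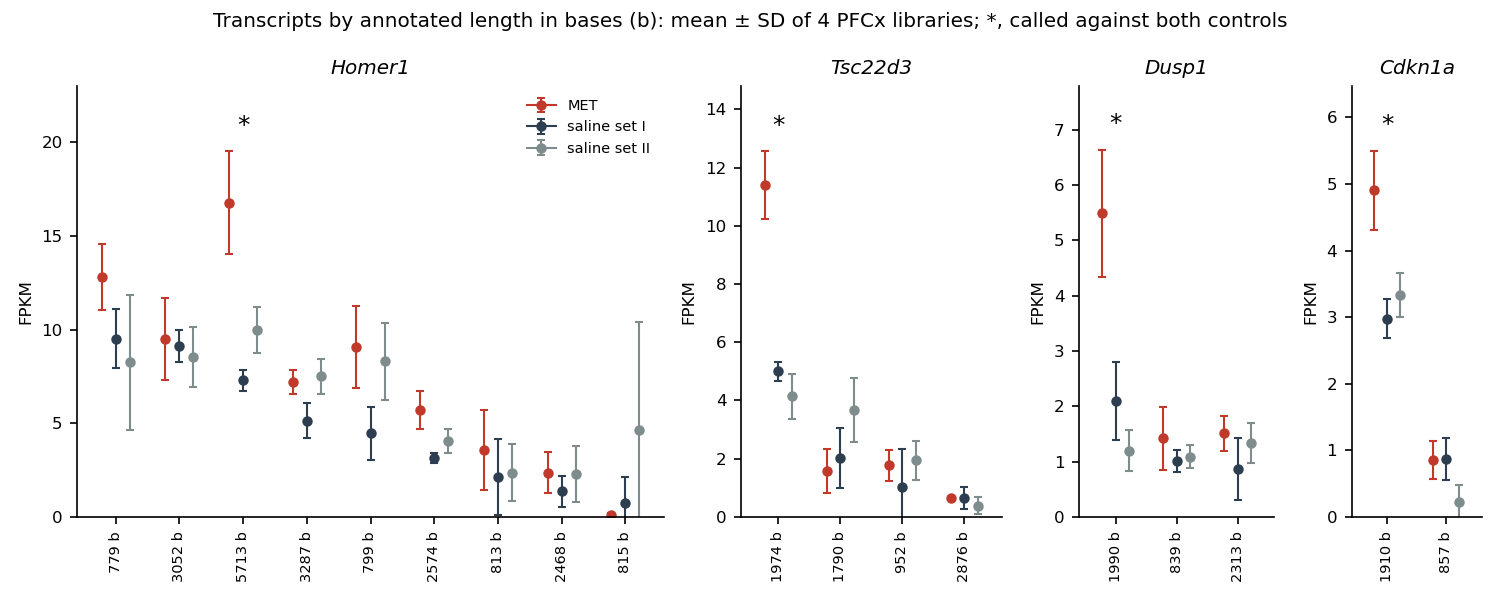
FPKM (y axes, linear, from 0) of the transcripts of Homer1, Tsc22d3, Dusp1 and Cdkn1a with a mean of at least 0.5, named on the x axis by annotated length in bases (b); points and bars are mean ± SD of 4 libraries for MET, saline set I and saline set II, and asterisks mark transcripts called against both controls. In each of these genes 1 transcript carries the asterisk.

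The level of the risen genes varied among the 4 MET libraries. MET library 1 was the highest of the 4 for 24 of the 43 risen genes, with a median difference of 0.674 from the set I mean, and MET library 3 was the lowest for 20, with a median of 0.524. For Arc these were 36.43 and 21.43 FPKM, for Fos 12.29 and 9.304. Without library 1 the count called against both controls was 29 (26 up and 3 down), without library 2 it was 28, and without libraries 3 or 4 it was 33 each. Among the 26 named called genes, 15 passed against both controls in every fit without 1 library: Arc, Csrnp1, Dio2, Dusp1, Dusp5, Dusp6, Egr1, Fos, Fosb, Klf10, Klf6, Nr4a1, Sik1, Trib1 and Tsc22d3. Of the other 11, Gadd45b, Nr4a2, Nyap2 and Rasgef1b lost the call against set I in each of the 8 fits (highest adjusted p 0.218, 0.16, 0.231 and 0.104), Bhlhe40 in 7, Adamts1, Ier5 and Spry4 in 6, Junb in 5 (0.0968) and Mcl1 in 4. Homer1 lost its call against the 8 in 1 fit (0.0616), Nr4a2 in 1, Nyap2 in 2, Spry4 in 3 and Mcl1 in 4.

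The 12 libraries held 1.52 to 2.78 aligned gigabases as estimated from the coverage column. All defining markers of cortical neurons were present, with Slc17a7, the vesicular glutamate transporter of cortical excitatory neurons, at 105.2 to 152.1 FPKM. None of 11 marker lists held a call. Their summed levels overlapped between MET and set I, and of the 14 sums compared by an exact two-sided permutation test none passed after adjustment (lowest adjusted p 0.227 against the 8). Against set I, 4 libraries against 4 cannot give a p under 0.0286, so no single sum could have passed after adjustment over 14. The test doubles the smaller tail, so a single sum could not have passed alone against the 8 either. Both tests therefore say little about these sums. The oligodendrocyte and myelin sum ran from 134 to 185 FPKM after MET and 157 to 208 in set I, and all 10 of its markers had differences under 0 (median -0.161), as did all 5 of the precursor list. All 5 blood markers were also under 0 (median -0.266), with sums of 68.5 to 127 FPKM after MET, 88.9 to 127 in set I and 38.2 to 58.3 in set II, and 2 of 13 cortical projection neuron markers were above 0 (median -0.09). Over all genes tested, 16587 of 36807 differences from set I were above 0. The part of these lists in the calls was not tested. In saline set II, library 4 stood apart: its striatal marker sum was 109 FPKM, against 35.1 to 54.4 in the other saline libraries and 38.8 to 51.6 after MET, and its Drd2 was 1.663 FPKM. Without that library 46 genes were called against both controls.

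In the NAc of mice with the same injection (whether the same mice gave both tissues was not given in the sources used here), 41 of the 43 risen PFCx genes had a mean above NAc saline set I (95.3%), against 47.6% of the genes tested in both tissues, and their median difference was 0.287. Fos was 6.753 FPKM after MET and 2.392 after saline there, and Nr4a1 12.18 and 4.063. The test of the difference between tissues called 0 of 25550 genes (0%; limma, 1101 at an unadjusted p under 0.05, lowest adjusted p 0.0891). The NAc libraries of MET and set I had 85397 to 87827 transcripts above 0 FPKM, and those of the PFCx 109212 to 110852. What this did to the comparison of tissues was not tested. Among the risen genes Klf10 came closest: it differed from saline by 0.72 in the PFCx and 0.13 in the NAc, where it read 3.47 against 3.049 FPKM (difference of differences 0.58 ± 0.12, adjusted p = 0.105). Of the 43, 37 had the larger difference in the PFCx, but they were chosen by their PFCx values, which favours that direction.

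Haloperidol (1 mg/kg, 2 h, in saline with a drop of hydrochloric acid), a dopamine D2 receptor blocker, was in the same sample set. MET differed from it in 31 of 36807 genes (0.0842%, 30 higher and 1 lower), of which 21 were short RNAs under 200 bases; a fit that held the replicate number as a block called 18, of which 17 were among the 31. Of the 43 risen genes, 42 were higher after MET than after haloperidol (97.7%, against 48.0% of all genes tested), by a median of 0.257, but they were chosen by their values in these MET libraries, which favours that direction. Arc averaged 14.95 ± 1.58 FPKM (SD, n = 4) after haloperidol against 28.23 after MET (difference 0.85 ± 0.16, adjusted p = 0.0316). Dio2 (0.43 ± 0.08, adjusted p = 0.0216), Adamts1 (0.53 ± 0.10, adjusted p = 0.0238) and Klf10 (0.37 ± 0.07, adjusted p = 0.0321) also passed. With the block Arc, Dio2 and Adamts1 kept an adjusted p under 0.05 and Klf10 did not (0.0611). Of 16 other settings, single libraries left out included, the call was lost in 9 for Arc (highest adjusted p 0.178), 10 for Klf10 (0.214), 6 for Adamts1 (0.127) and 5 for Dio2 (0.318), always with the same direction. Fos (0.19 ± 0.13) and Fosb (-0.03 ± 0.12, adjusted p = 0.984) did not pass, and haloperidol read 9.283 and 3.582 FPKM.

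**Figure D5:**
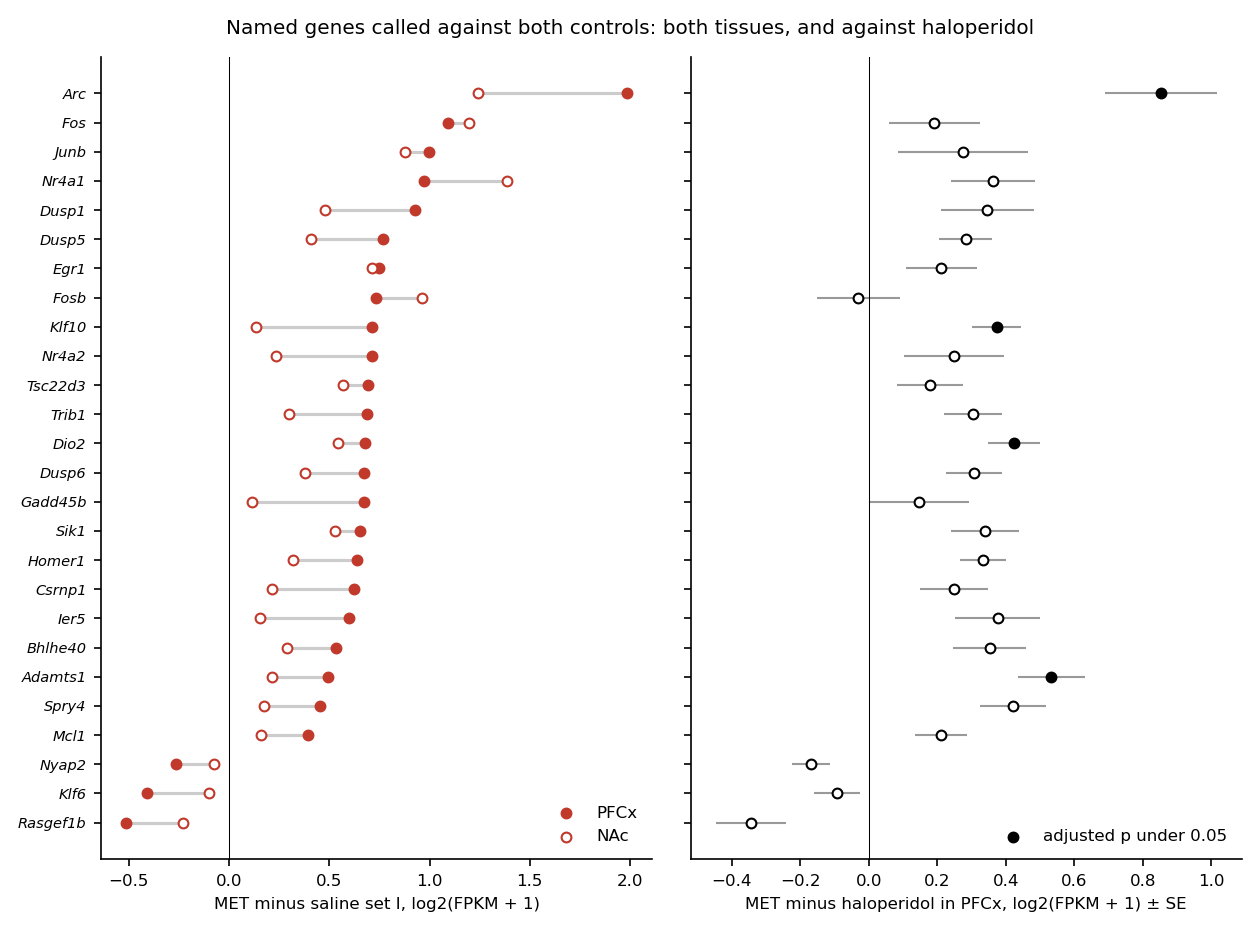
Left, difference between MET and saline set I in log2(FPKM + 1) in the PFCx (filled) and NAc (open) for the 26 named called genes; right, MET minus haloperidol in the PFCx with its SE, filled where the adjusted p was under 0.05. Fos, Nr4a1 and Fosb are further right in the NAc than in the PFCx, and Arc, Klf10, Dio2 and Adamts1 carry the filled points on the right.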

How the data were processed

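Total RNA was ribo-depleted and sequenced as single-end reads on the Ion Proton. Per the labels and the study's methods, the authors aligned reads with TopHat2 (2.0.1) and Tmap to mm10 and quantified Ensembl transcripts with Cufflinks 2.2.1, and they deposited FPKM and a coverage signal for 112714 transcripts per library. FPKM values were used as deposited, per transcript or summed per gene symbol, and log2(FPKM + 1) was tested with limma 3.58.1 (R 4.3.3) over all 32 PFCx libraries, for features with a mean FPKM of at least 0.1. Coverage times length gave the aligned gigabases; reads were not counted, so no counting interval could be given. The members and lists were chosen with earlier results of these data known. Named were the 20 largest rises and 10 largest falls among called genes (mean FPKM of at least 1, 1 gene identifier, at least 200 bases, no predicted or clone name), a fixed list of early, stress and dopamine receptor genes, at most 4 called members of each list, isoforms of named genes with a mean of at least 0.5, and up to 5 called transcripts each way of genes not called. Libraries of MET and set I with the same replicate number had correlations of deviations of 0.147 to 0.497, all above 0.1. For set II these were -0.025 to 0.069. Unmatched numbers of MET and set I ran from -0.273 to 0.187. MET library 2 with set I library 3 (0.187) and MET library 3 with set I library 2 (0.134) were also above 0.1. A pairing by number was therefore not clear for libraries 2 and 3. Whether each library came from 1 animal was not given in the sources used here, so p-values measure the spread between libraries. Alternatives covered the pseudocount, filters, prior, scaling, quantification status, block and left-out libraries.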

Additional observations from a re-analysis of the deposited data

Results flagged for a closer look

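Among 114 groups of 4 libraries (38 named genes in MET, saline set I and saline set II), 4 had 1 library far from the other 3 by Dixon's test, where chance flags about 1 in 20. Bhlhe40 read 36.38 FPKM in MET library 4, above the 31.2 to 31.85 of the other MET libraries. Dusp6 read 11.11 FPKM in the same library, below the 12.62 to 12.91 of the others. Drd2 read 1.663 FPKM in saline set II library 4, against 0.1838 to 0.2705 in the other set II libraries, and Dusp5 read 0.9779 there against 0.7852 to 0.8062. That set II library also held the high striatal marker sum.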

How the results depend on the processing

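The 26 named called genes kept their direction under every alternative. Filtering, the limma trend prior, rescaling to the 75th percentile and the quantification status left every count within 1.5 times. A pseudocount of 0.1 gave 77 genes against the 8 saline libraries, 32 against set I, 29 against both, 18 transcripts and 1 gene against haloperidol. With only the compared libraries these were 48, 2, 2, 0 and 15. Saline set II as the only control called 3021 genes, 129 of them among the 130 called against the 8. MET shared set I, so drug and sample set cannot be told apart in the 3021. Set II is also part of the 8, so the overlap is no independent check. The replicate block changed no count by over 1.5 times except against haloperidol (18 genes), and the calls it changed among the named genes stand beside them. It was common to all groups of a tissue, saline set II included, although set II did not pair with MET by number. The block with only MET and set I, added after the data were seen, called 0 genes (lowest adjusted p of a named gene 0.107, for Arc). Leaving out 1 library gave 69 to 181 genes against the 8, 29 to 56 against set I, 27 to 48 against both, 22 to 42 transcripts, 2 to 28 genes against haloperidol and 0 to 1 for the difference from the NAc. Against the 8 it was 75, 69 and 76 without MET libraries 1, 2 and 3. Against set I it was 34, 31 and 39 without MET libraries 1, 2 and 4, and 31, 29 and 37 without set I libraries 2, 3 and 4, with 27, 27 and 32 against both controls for these 3. Transcripts were 26 and 22 without MET libraries 1 and 2. Against haloperidol it was 2, 9 and 13 without MET libraries 1, 2 and 4, and 18, 19 and 2 without haloperidol libraries 1, 2 and 4. Drd2, near 0, changed sign against set I without MET library 1 (0.067) or 2 (0.011) or set I library 1 (0.016) or 4 (0.088), and against the 8 without MET library 1 (0.005) or set II library 4 (0.058); its lowest values without 1 library were -0.084 and -0.146. Drd1 did so without MET library 3 (-0.053) or set I library 2 (-0.066), with a highest value of 0.099. No depth in reads is known, so low genes cannot be given a detection limit.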
